A study of Rattus norvegicus with 12 samples.

Results

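Chemokines and chemokine receptors accounted for 51 of the 34700 genes counted in heart tissue of 12 rats. They were taken by name alone, as every gene whose symbol begins with Ccl, Cxcl, Ccr or Cxcr followed directly by a digit, together with Cx3cl1, Cx3cr1 and Xcl1. The set held 34 ligand genes and 17 receptor genes. More than 10 counts in at least 3 rats were found for 31 of them (23 ligands and 8 receptors), and 20 stayed below that level. Ccr2, the receptor of Ccl2, was not analysed here, and neither was Cxcl5.

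The rats were male Sprague-Dawley animals, 8 weeks old at surgery, in 4 groups of 3. Sham rats had a thread passed around the left anterior descending coronary artery without ligation, whereas the artery was ligated in the HF, HFE and BAIBA groups, so that all 9 rats of these groups carried an infarct. From 4 weeks after surgery and for 8 weeks, HFE rats (HF with exercise) ran on a treadmill for 60 min on 5 days a week. Over the same time BAIBA rats received β-aminoisobutyric acid, a small molecule released by exercising muscle, at 75 mg/kg/day by gavage. In the paper, Sham and HF rats were sedentary in the exercise study and received water by gavage in the BAIBA study. The labels call the HF rats sedentary and do not name the study of the sequenced Sham and HF rats. Poly(A) RNA was taken 12 weeks after surgery from the anterior wall of the left ventricle. The paper's methods name tissue beside the infarct for the BAIBA group only, whereas its results name such tissue for the HF group too. Libraries held 14812541 to 19732588 counts, a depth at which a count of 0 still allowed 3 counts, or 0.152 to 0.203 CPM (counts scaled to library depth). Cardiomyocyte markers were high in every rat, with a summed level of 28618 to 37322 CPM over 5 genes. The labels number the samples of a group without saying how they were obtained, so p-values measure the spread between these samples.

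Chemokines are small secreted proteins that bind heparan sulphate on vessel walls and matrix and draw leukocytes along their gradient. Their receptors are G protein-coupled receptors on leukocytes and some stromal cells, and most of them signal through the inhibitory G protein to the cytoskeleton. After an infarct, ligands of the Cxcr2 receptor recruit neutrophils, Ccl2 and Ccl7 recruit monocytes, Cxcl9, Cxcl10 and Cxcl11 recruit Cxcr3-bearing T cells under interferon-γ, and Cxcl12 acts on Cxcr4-bearing progenitor and immune cells. In RNA from whole tissue, fewer cells of a type and less RNA per cell cannot be told apart.

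The promoters of 5 members on which the results turn are shown first, as the 250 bases before the annotated start (RefSeq, GRCr8). Ccl1 and Ccl21 are shown because they stood lowest and among the highest in infarcted rats against Sham rats. Cxcl9, Cxcl10 and Cxcl11 are shown because they are neighbours on chromosome 14 and share the Cxcr3 receptor. Capitals mark GAAA followed by any 2 bases and GAAA again, the core of the interferon-stimulated response element, and GGG followed by any 3 bases and TTCC, a form of the NF-κB site, both searched on either strand.
Ccl1, chr10:67628741-67628990, minus strand: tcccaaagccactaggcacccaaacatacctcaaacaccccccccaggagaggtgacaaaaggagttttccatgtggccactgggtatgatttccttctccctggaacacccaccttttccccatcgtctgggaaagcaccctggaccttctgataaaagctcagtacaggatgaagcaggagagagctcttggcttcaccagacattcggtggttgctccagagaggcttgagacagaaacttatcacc
Ccl21, chr5:61777516-61777765, minus strand: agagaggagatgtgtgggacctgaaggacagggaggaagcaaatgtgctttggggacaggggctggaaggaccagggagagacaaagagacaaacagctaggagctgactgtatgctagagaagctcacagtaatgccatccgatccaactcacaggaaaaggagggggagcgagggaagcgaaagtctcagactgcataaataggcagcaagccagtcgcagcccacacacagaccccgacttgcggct
Cxcl9, chr14:16006916-16007165, plus strand: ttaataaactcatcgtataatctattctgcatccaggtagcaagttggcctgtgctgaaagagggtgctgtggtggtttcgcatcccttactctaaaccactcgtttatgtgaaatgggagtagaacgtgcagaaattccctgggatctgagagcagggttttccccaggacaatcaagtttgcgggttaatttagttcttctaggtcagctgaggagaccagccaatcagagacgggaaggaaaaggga
Cxcl10, chr14:15988816-15989065, plus strand: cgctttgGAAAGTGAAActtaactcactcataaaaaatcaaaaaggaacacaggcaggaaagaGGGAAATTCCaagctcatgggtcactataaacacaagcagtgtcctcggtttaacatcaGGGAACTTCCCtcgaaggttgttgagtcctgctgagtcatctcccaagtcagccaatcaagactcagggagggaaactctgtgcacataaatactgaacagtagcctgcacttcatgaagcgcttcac
Cxcl11, chr14:15973478-15973727, plus strand: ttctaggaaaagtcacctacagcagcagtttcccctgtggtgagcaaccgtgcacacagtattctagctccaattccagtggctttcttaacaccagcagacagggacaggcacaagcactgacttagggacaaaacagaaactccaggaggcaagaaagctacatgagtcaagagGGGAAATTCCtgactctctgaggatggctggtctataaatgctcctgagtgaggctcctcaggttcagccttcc

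The Cxcl10 window held 1 match to the first pattern and 3 to the second, of which 2 overlap in a single run of capitals. Cxcl11 held 1 match to the second pattern and none to the first, and these letters were in none of the windows of Ccl1, Ccl21 and Cxcl9. RefSeq promoters were given for 38 of the 51 members. The interferon-type pattern was in 2 of these 38 (Ccl19 and Cxcl10), against 3.41% of 33469 rat promoters. The NF-κB-type pattern was in 10 (Ccl6, Ccl7, Ccl9, Ccl20, Ccr3, Cxcl1, Cxcl2, Cxcl6, Cxcl10 and Cxcl11), against 4.53% of the same promoters. Members also lay close together in the genome. Chromosome 10 holds 13 of them, among them Ccl1, Ccl2, Ccl7, Ccl11 and Ccl12, chromosome 8 holds 10 receptors, and chromosome 14 holds 8 CXC ligands.

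Single rats stood apart in ways that touch these genes. HF rat 1 held thymus transcripts. A list of 10 thymocyte and thymic epithelium genes, written after this was noticed, summed to 523 CPM there and to 1.84 to 7.36 CPM in the other rats, and Rag1, the recombinase of developing lymphocytes, had 5023 counts there and at most 2 elsewhere. The T cell list (6 genes) summed to 187 CPM in that rat and to at most 17.2 CPM in the others. BAIBA rat 1 held lung transcripts. A list of 10 lung epithelium genes, also written afterwards, summed to 765 CPM there and to at most 0.972 CPM elsewhere, with 6869 counts of Sftpc, surfactant protein C, against at most 6. Its macrophage list (10 genes) summed to 1093 CPM, against 127 to 290 CPM in the other 11 rats. HFE rat 3 had the highest summed level of 9 immediate early genes, 1152 CPM against 142 to 330 CPM. The part of these transcripts in the chemokine values was not tested, and the main counts and several single genes are given with and without HF rat 1 and BAIBA rat 1.

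Some chemokine genes with few counts elsewhere were high in these libraries. In HF rat 1, Ccr9, the receptor that guides lymphocytes to thymus and gut, had 406 counts and its ligand Ccl25 had 196. Ccr9 reached at most 7 counts in any other rat and Ccl25 at most 2. Ccl22, a ligand of Ccr4, had 74 counts there against at most 11. Ccr7, the lymphoid homing receptor, had 64 counts, Ccr8 had 22 and Ccr4 had 17, in each case the highest of the 12 rats. In BAIBA rat 1, Cxcl3, a neutrophil-recruiting ligand, had 161 counts against at most 2 elsewhere. Cxcr1, a receptor for such ligands, had 18 counts and Cxcl6 had 14, and both were at 0 counts in the other 11 rats. Ccl9 had 35 counts there. Cxcl2 was highest in HFE rat 3, at 14 counts. BAIBA rat 1 was the highest rat for 14 of the 31 members above the count level and for 21 of all 51, more than any other library.

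**Figure D1:**
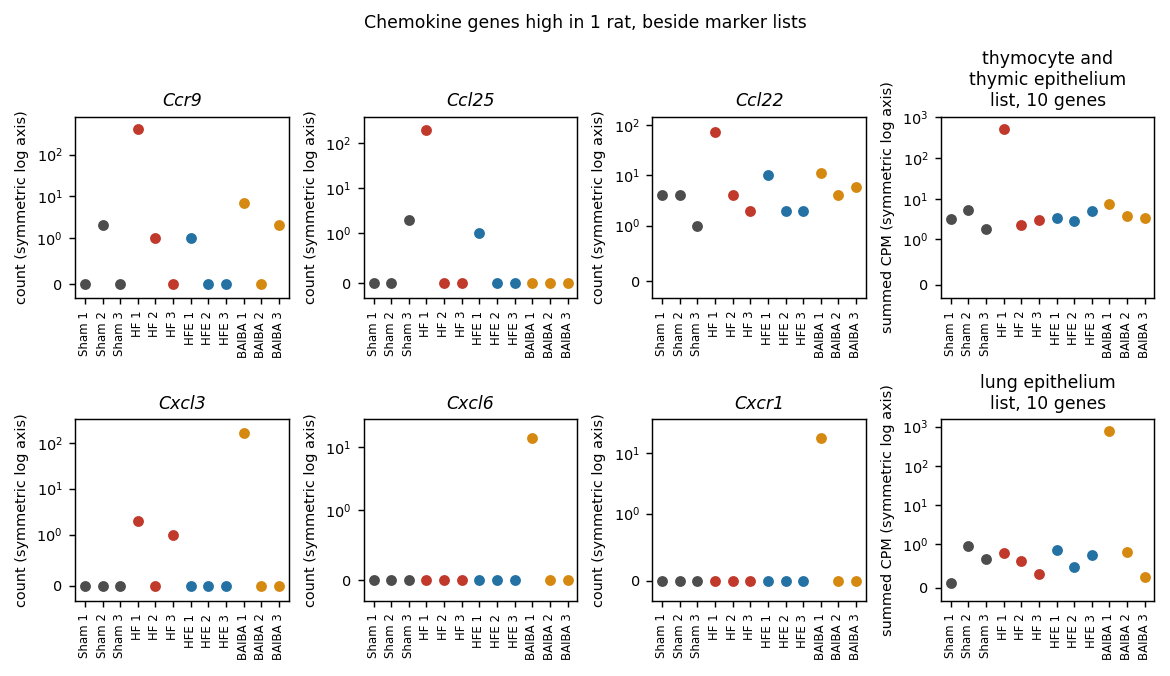
Counts of 6 members in each of the 12 rats on a symmetric log axis, with the summed CPM of the thymus list and the lung list (10 genes each) on the right. Ccr9, Ccl25 and Ccl22 were highest in HF rat 1, as was the thymus list, and Cxcl3, Cxcl6 and Cxcr1 were highest in BAIBA rat 1, as was the lung list.

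The remaining members below the count level had few counts in every library. Ccl17 had at most 13 counts, Ccl3 at most 11, Cxcr5 at most 21, Cxcr2 at most 12, Ccl20 at most 7, Ccr3 at most 6, Ccr6 at most 4, Ccl26 at most 2 and Ccl28 at most 1. Apart from Cxcl1, neutrophil-recruiting ligands and their receptors were thus near the detection limit outside single rats. The neutrophil marker list (6 genes, among them S100a8 and S100a9) was also low, at 2.15 to 12.4 summed CPM.

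Levels between genes were compared per length, as the deposited FPKM (fragments scaled to gene length and library depth). Ccl21, a ligand of Ccr7 made by lymphatic endothelium, had the highest mean level over the 12 rats, at 51.95 FPKM. Cxcl12 followed at 29.7 FPKM, then Cxcl11 at 16.4, Ccl5 at 11.2, Ccl6 at 10.7, Cxcl16 at 10.1, Cxcr4 at 9.64 and Cx3cl1 at 8.37 FPKM. Cxcr4 was the receptor with the highest level. The 10 next ligands ran from Cxcl9 at 8.12 and Ccl2 at 5.84 FPKM down to Ccl19 at 2.17. In CPM, which favours long transcripts, Cxcl12 alone took 31.8% to 50.7% of the summed level of all 51 genes. The order among neighbours was not firm: the FPKM ranges of Ccl5 (5.796 to 17.8), Ccl6 (5.29 to 29.6) and Cxcl16 (7.65 to 19.2) over the 12 rats overlapped throughout. Ccl21 (14.9 to 91.6 FPKM) and Cxcl12 (22.4 to 36.4 FPKM) also overlapped. In all 3 Sham rats Ccl21 was the lower of the pair, with a mean of 24.1 ± 8.05 FPKM against 29.2 ± 3.94 FPKM for Cxcl12 (SD, n = 3), so its first rank came from the infarcted rats.

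**Figure D2:**
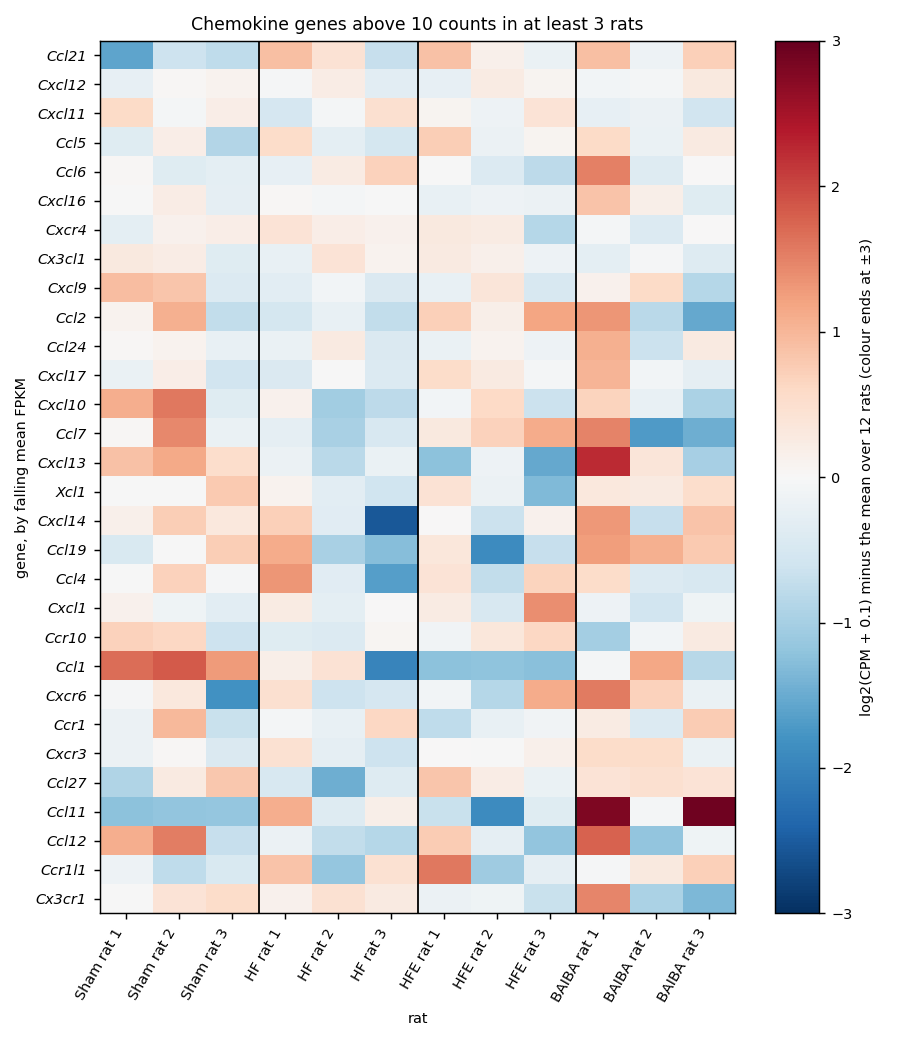
Levels of 30 of the 31 members above the count level (rows, by falling mean FPKM) in each of the 12 rats (columns), as log2(CPM + 0.1) minus the gene's mean over the rats. The column of BAIBA rat 1 holds the highest value of 13 rows, Ccl1 is highest in the 3 Sham rats, and Cxcl12 is near its mean in every rat.

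Which chemokine genes differ between the groups was asked in 6 comparisons of 3 rats against 3, in 1 comparison of the 9 infarcted rats against the 3 Sham rats, and in 1 test for any difference among the groups. These comparisons share rats and are not independent. A gene was called at a Benjamini-Hochberg adjusted p under 0.05 over all genes tested, in edgeR's quasi-likelihood test, with an absolute log2 fold change over 1. The filter on low counts left 25 to 32 members for testing. No member was called in any of the 8 tests. Few genes of any kind were: 0% of the genes tested for HF against Sham, HFE against HF, BAIBA against HF, HFE against Sham, the infarcted rats against Sham and any difference, 0.0808% for BAIBA against HFE and 0.0402% for BAIBA against Sham. The lowest adjusted p of a member was 0.119, for Ccl1 in HFE against Sham, a test that Ccl1 entered only through the Sham rats, where its counts were high. Ccl1 was called there when genes with fewer counts were kept in the test (1 member, where 0.109% of all genes were called).

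DESeq2, run as an alternative on the same counts, called members in 4 of the 8 tests. It called Ccl1, Cxcl13 (both lower) and Ccl21 (higher) in HFE against Sham (3 members, where 0.467% of all genes were called), Ccl11 and Ccl21 (both higher) in BAIBA against Sham (0.436%), Ccl11 (higher) in BAIBA against HFE (1.09%) and Ccl11 for any difference among the groups (1.97%). It called no member in HF against Sham, HFE against HF, BAIBA against HF and infarcted against Sham rats. The Ccl11 calls rest on BAIBA rats 1 and 3, with 45 counts each against 4 in BAIBA rat 2. Ccl11 had too few counts to enter the main edgeR tests of BAIBA against Sham and BAIBA against HFE. The Ccl11 calls are therefore a description only.

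An unadjusted p under 0.05 was reached by 2 to 6 members in each test. In HF against Sham it was 6 of 27 members (Ccl21 higher, and Ccl1, Ccl7, Cxcl9, Cxcl10 and Cxcl13 lower), against 6% of all genes. In HFE against Sham it was 3 of 27 against 11.2%, in BAIBA against Sham 4 of 29 against 7.41%, and in infarcted against Sham rats 4 of 32 against 6.35%. Between the infarcted groups it was 2 of 25 in HFE against HF against 7.62%, 3 of 27 in BAIBA against HF against 5.55%, and 2 of 26 in BAIBA against HFE against 9.57%. For any difference among the groups it was 4 of 32 (Ccl1, Ccl11, Ccl21 and Cxcl13) against 9.71%. With the limit on the fold kept it was 5 members in HF against Sham (1.28% of all genes), 2 in HFE against HF (1.06%), 2 in BAIBA against HF (1.32%), 1 in BAIBA against HFE (2.51%), 3 in HFE against Sham (1.72%), 2 in BAIBA against Sham (1.69%) and 4 in infarcted against Sham rats (1.05%). Some of these members passed the filter only through the rats where their counts were high. They were Ccl1 in each test with Sham rats, and Ccl11 in infarcted against Sham rats, BAIBA against HF and any difference. Ccl27 in BAIBA against HF was a further one. For these the filter favours a difference, so the counts of members are a description only.

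These counts moved with single rats. In HF against Sham it was 2 of 29 members without Sham rat 1 (3.49% of all genes), 2 of 28 without Sham rat 2 (3.12%), 2 of 29 without HF rat 2 (5.96%) and 9 of 29 without Sham rat 3 (7.5%). In infarcted against Sham rats it was 2 of 35 without Sham rat 1 (3.5%) and 9 of 33 without BAIBA rat 1 (7.05%). In BAIBA against HF it was 0 of 31 without HF rat 2 (4.18%) and 6 of 29 without HF rat 1 (7.75%), and in BAIBA against HFE it reached 8 of 30 without BAIBA rat 2 (9.6%). In HFE against Sham it was 6 of 27 without Sham rat 2 (9.27%) and 6 of 28 without Sham rat 3 (11.8%), and in BAIBA against Sham it was 8 of 31 without Sham rat 3 (7.99%) or without BAIBA rat 2 (7.02%). For any difference among the groups it was 2 of 35 without Sham rat 1 (7.34%) or without Sham rat 2 (7.67%), 7 of 35 without HF rat 3 (9.47%) or without BAIBA rat 2 (9.66%), and 7 of 33 without BAIBA rat 1 (10%). In HFE against HF it was 2 to 3 with each rat left out.

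Complete separation of the groups, with every rat of one above every rat of the other, was seen for 2 to 4 members in each comparison of 3 rats against 3, and in 5 of these 6 comparisons their share was below that of all genes. It held for 3 of 27 members in HF against Sham (11.8% of all genes), 3 of 25 in HFE against HF (14.4%), 3 of 27 in BAIBA against HF (11.4%), 2 of 26 in BAIBA against HFE (15.5%), 4 of 27 in HFE against Sham (17.7%) and 4 of 29 in BAIBA against Sham (12.7%). Across all 9 infarcted rats and the 3 Sham rats only Ccl1 separated, 1 of 32 members, where 1.05% of all genes did. Ccl1 passed the filter there through the Sham rats, where its counts were high.

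**Figure D3:**
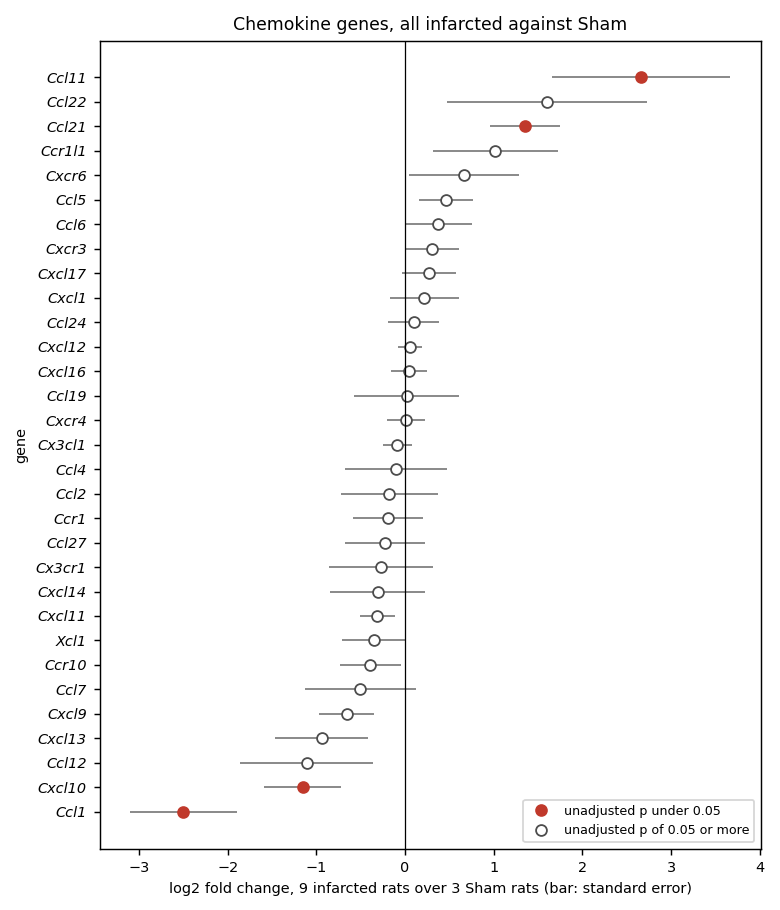
Log2 fold change of the mean of the 9 infarcted rats over the 3 Sham rats for 31 of the 32 members tested in the fit of all 12 rats, with the standard error as a bar. Ccl11 and Ccl21 (higher) and Cxcl10 and Ccl1 (lower) had an unadjusted p under 0.05, and no adjusted p was under 0.05.

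Among the T cell and eosinophil recruiting CC ligands (10 genes, 4 above the count level), Ccl1, the ligand of Ccr8, was the member that separated Sham rats from all infarcted rats. It had 20, 20 and 13 counts in Sham rats 1, 2 and 3, 6, 7 and 0 counts in the HF rats, 1, 1 and 1 count in the HFE rats, and 5, 12 and 2 counts in the BAIBA rats. Every Sham rat was above every infarcted rat, though the highest BAIBA rat and the lowest Sham rat differed by 1 count. The log2 fold change from Sham was -2.101 (SE 0.77, adjusted p = 0.805) in HF, -3.896 (SE 0.52, adjusted p = 0.119) in HFE and -1.497 (SE 0.59, adjusted p = 0.656) in BAIBA. Summed over the rats and scaled to depth, the HFE level was 0.0579 (95% exact interval 0.0116 to 0.179) of the Sham level (3 counts against 53), where the interval covers counting error only. For all infarcted rats against Sham the change was -2.500 (SE 0.61, adjusted p = 0.639), and the exact two-sided permutation test gave p = 0.00455, the smallest its 220 assignments allow, and 0.793 after adjustment over all genes. Ccl1 passed the filter of these tests only because its counts were high in the Sham rats. The filter thus favours a lower level in infarcted rats, and these values are a description only. Ccr8, the receptor of Ccl1, had at most 11 counts outside HF rat 1.

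Ccl11 (eotaxin, a ligand of Ccr3) was detected mainly in BAIBA rats. It had 1, 1 and 1 counts in the Sham rats, 12, 3 and 6 in the HF rats, 2, 0 and 3 in the HFE rats and 45, 4 and 45 in the BAIBA rats. BAIBA rats 1 and 3 were high, and BAIBA rat 2 lay within the range of the HF rats. Its log2 fold change was 2.18 (SE 0.86, adjusted p = 0.851) in BAIBA against HF and 2.66 (SE 1.01, adjusted p = 0.757) in infarcted against Sham rats. It passed the filter in these fits through BAIBA rats 1 and 3 together with HF rat 1. Against Sham its summed, depth-scaled counts stood at 30.2 times the Sham level (95% exact interval 10.01 to 149), with 94 counts against 3 (counting error only). The epicardium and mesothelium list (5 genes) was also highest in these same BAIBA rats, at 84.2 and 43.1 summed CPM against 24.1 in BAIBA rat 2 and 18.1 to 26.7 in the other groups, and its part in the Ccl11 values was not tested. With all rats Ccl11 had too few counts to enter the test of BAIBA against Sham. Without BAIBA rat 2, its lowest rat of that group, it entered through the other 2 BAIBA rats and was past the threshold, with a log2 fold change of 5.22 (SE 0.47, adjusted p = 0.0198), where 0.105% of all genes were called. Since both the filter and the rat left out favour a difference, this value is a description only. Ccr3, its receptor, had at most 6 counts in any rat.

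Ccl27, a ligand of Ccr10, was at 0.231, 0.648 and 0.985 CPM in the Sham rats, 0.344, 0.123 and 0.371 CPM in the HF rats, 0.999, 0.623 and 0.443 CPM in the HFE rats and 0.725, 0.770 and 0.724 CPM in the BAIBA rats. The BAIBA rats lay closely together and above all 3 HF rats, while the Sham rats spanned both groups. The log2 fold change of BAIBA against HF was 1.37 (SE 0.50, adjusted p = 0.851). Ccl27 passed the filter of this test only through the BAIBA rats (13, 12 and 12 counts, against 6, 2 and 7 in the HF rats). The filter thus favours a higher level in BAIBA rats, and these values are a description only. Ccl24, another ligand of Ccr3, ranged from 3.78 to 12.5 CPM with its highest value in BAIBA rat 1 and had no unadjusted p under 0.05.

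The lymphoid homing genes (5, of which 3 were above the count level) included Ccl21, which had a positive log2 fold change in all 3 infarcted groups. It was at 12.6, 24.6 and 22.4 CPM in Sham rats 1, 2 and 3, 70.1, 50.8 and 23.4 CPM in the HF rats, 69.6, 41.8 and 33.1 CPM in the HFE rats and 71.2, 34.1 and 62.3 CPM in the BAIBA rats. All HFE and BAIBA rats were above all Sham rats, and HF rat 3 lay between Sham rats 2 and 3. Against Sham, the log2 fold change of Ccl21 was 1.28 (SE 0.45, adjusted p = 0.805) in HF, 1.29 (SE 0.37, adjusted p = 0.352) in HFE and 1.502 (SE 0.35, adjusted p = 0.435) in BAIBA. Taken over all infarcted rats it was 1.35 (SE 0.40, adjusted p = 0.740), with an exact permutation p of 0.00909 (0.793 adjusted over all genes). The highest Ccl21 values were those of BAIBA rat 1 and HF rat 1. Without both rats the change over the infarcted rats was 1.16 (SE 0.40, adjusted p = 0.548). Without BAIBA rat 1 that of BAIBA against Sham was 1.29 (SE 0.39, adjusted p = 0.495). A list of 5 genes taken as markers of lymphatic endothelium, the usual source of this ligand, summed to 103 to 110 CPM in Sham rats, 107 to 117 CPM in HF and HFE rats and 104 to 175 CPM in BAIBA rats. The genes of that list did not move alike, so their sum is not a measure of the amount of lymphatic endothelium. Flt4, the receptor for lymphatic growth factors, was at 16.96, 18.7 and 21.1 CPM in the Sham rats, 26.3, 29.8 and 19.7 CPM in the HF rats, 23.97, 27.2 and 30.8 CPM in the HFE rats and 25.8, 24.5 and 27.6 CPM in the BAIBA rats, so that, like Ccl21, it was higher in all HFE and BAIBA rats than in all Sham rats. Reln was at 2.37, 5.45 and 8.01 CPM, 11.5, 8.895 and 10.4 CPM, 8.32, 7.41 and 5.95 CPM and 5.52, 6.09 and 12.4 CPM in the same order, with every HF rat above every Sham rat. Prox1, which carries the largest part of the sum in most rats, was at 64.1, 55.1 and 48.1 CPM in the Sham rats and 34.4, 35.8 and 41.01 CPM in the BAIBA rats, every one of which was below every Sham rat. The rest of the sum, from Lyve1 and Pdpn, was higher in every BAIBA rat than in every Sham rat. Among the BAIBA rats this rest was largest in BAIBA rat 1, the rat with lung transcripts and high macrophage markers. The part of lymphatic endothelium in the Ccl21 values was not tested.

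Ccl19, the second ligand of Ccr7, did not follow Ccl21. It was at 0.923, 1.297 and 2.23 CPM in the Sham rats, 2.92, 0.613 and 0.477 CPM in the HF rats, 1.66, 0.277 and 0.760 CPM in the HFE rats and 3.23, 2.82 and 2.29 CPM in the BAIBA rats. All BAIBA rats were above all Sham and HFE rats, and HF rat 1 was as high as the BAIBA rats. The log2 fold change of BAIBA was 1.62 (SE 0.53, adjusted p = 0.363) against HFE and 0.92 (SE 0.37, adjusted p = 0.656) against Sham. Without HF rat 1 and BAIBA rat 1, the change of BAIBA against HF was 2.23 (SE 0.43, adjusted p = 0.246).

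Cxcl13, the B cell attractant that acts on Cxcr5, was at 3.81, 4.54 and 2.95 CPM in the Sham rats, 1.78, 1.104 and 1.75 CPM in the HF rats, 0.799, 1.800 and 0.633 CPM in the HFE rats and 9.93, 2.63 and 0.965 CPM in the BAIBA rats. The HF and HFE rats were all below the Sham rats, and BAIBA rat 1 was above every other rat. Against Sham, Cxcl13 had a log2 fold change of -1.28 (SE 0.30, adjusted p = 0.737) in HF and -1.801 (SE 0.40, adjusted p = 0.219) in HFE. In infarcted against Sham rats without HF rat 1 and BAIBA rat 1 it was -1.42 (SE 0.36, adjusted p = 0.393). B cell markers (5 genes) were low, at 1.81 to 5.19 summed CPM outside HF rat 1 and BAIBA rat 1.

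The monocyte and macrophage recruiting CC ligands (8 genes, 6 above the count level) showed no called change either, and 2 of them were higher in every HFE rat than in every HF rat. Ccl2, the main monocyte attractant, was at 4.33, 8.56 and 2.36 CPM in the Sham rats, 2.75, 3.44 and 2.38 CPM in the HF rats, 6.72, 4.57 and 9.31 CPM in the HFE rats and 10.2, 2.25 and 1.33 CPM in the BAIBA rats. Its neighbour Ccl7, which acts on the same receptor, was at 1.73, 4.73 and 1.44 CPM, 1.38, 0.797 and 1.17 CPM, 2.06, 2.77 and 3.74 CPM and 4.91, 0.449 and 0.543 CPM in the same order. For both genes the HF rats were close together and below the HFE rats, Sham rat 2 and BAIBA rat 1 were high, and BAIBA rats 2 and 3 were below the lowest HF rat.

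In HFE against HF, the log2 fold change was 1.26 (SE 0.30, adjusted p = 0.627) for Ccl2 and 1.35 (SE 0.35, adjusted p = 0.627) for Ccl7. In HF against Sham, Ccl7 had a log2 fold change of -1.23 (SE 0.51, adjusted p = 0.805), and of -0.51 without Sham rat 2. The comparison of BAIBA with HFE depended on BAIBA rat 1: without it the log2 fold change was -1.95 (SE 0.38, adjusted p = 0.116) for Ccl2 and -2.51 (SE 0.43, adjusted p = 0.0954) for Ccl7, against -0.57 and -0.51 with it. Leaving out this rat, the highest of its group for both genes, favours a difference. Ccl7 also passed the filter then only through the HFE rats (31, 40 and 59 counts, against 7 and 9 in BAIBA rats 2 and 3). Both values without this rat are a description only. HFE rat 3, the rat with high immediate early genes, had the highest Ccl2 and Ccl7 of its group, and HFE rats 1 and 2 were also above the HF rats. Ccl12, a further ligand of this receptor, had 1 to 21 counts and Ccl4 had 4 to 41, neither with an unadjusted p under 0.05 in the tests it entered.

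Ccl5 (RANTES), which draws T cells and macrophages, was at 4.44, 6.55 and 3.09 CPM in the Sham rats, 8.49, 4.66 and 3.97 CPM in the HF rats, 9.59, 5.05 and 6.08 CPM in the HFE rats and 8.59, 5.003 and 6.93 CPM in the BAIBA rats. Its levels overlapped between all groups. Ccl6, a rodent ligand of Ccr1, was at 13.5, 10.3 and 10.8 CPM in the Sham rats, 11.1, 15.8 and 21.2 CPM in the HF rats, 13.1, 9.898 and 7.598 CPM in the HFE rats and 37.8, 10.01 and 13.4 CPM in the BAIBA rats. It was highest in BAIBA rat 1, the rat with the high macrophage markers, and its log2 fold change in HF against Sham was 0.68 (SE 0.18, adjusted p = 0.375) without HF rat 1 and 0.47 with it.

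**Figure D4:**
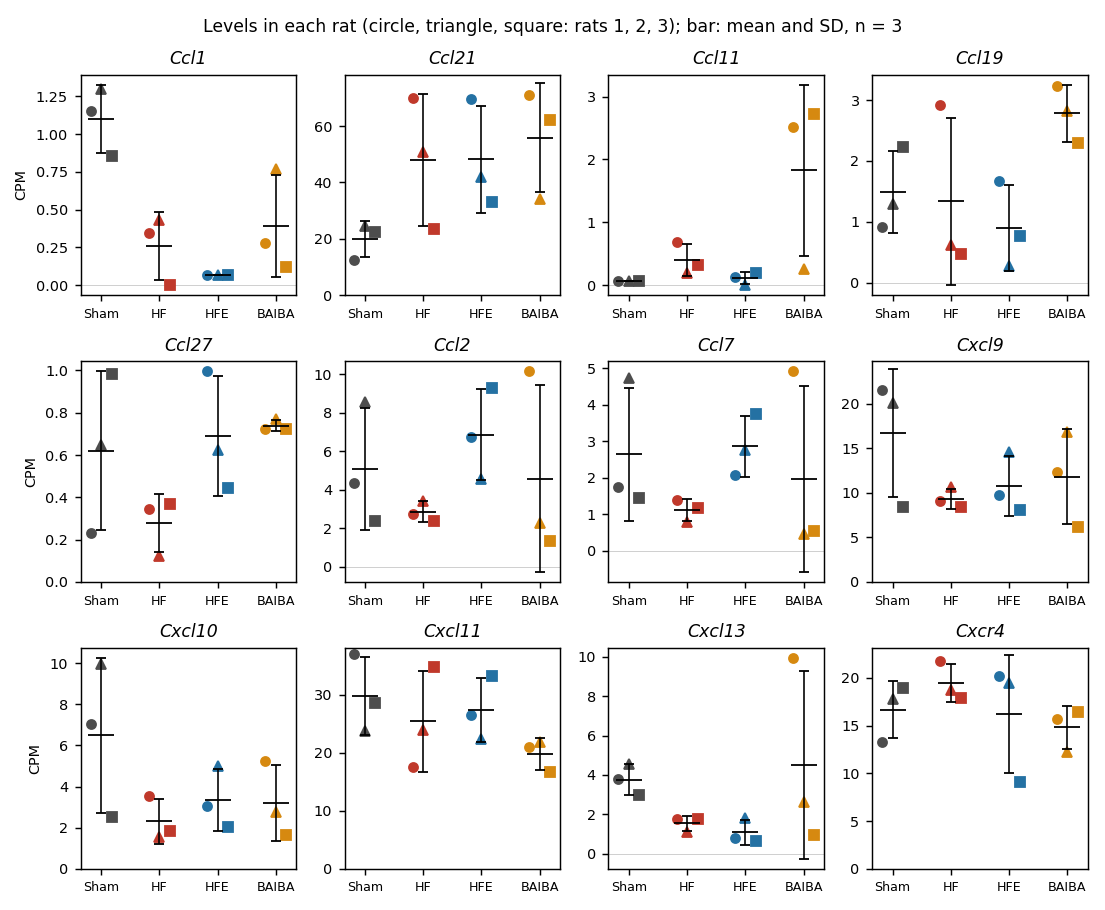
CPM of the 12 members with an unadjusted p under 0.05 in any test, in each rat of the 4 groups (circle, triangle and square for rats 1, 2 and 3), with the mean and SD of 3 rats. Ccl1 lies highest in the 3 Sham rats, Ccl21 lies lowest there but for HF rat 3, and Ccl2, Ccl7 and Cxcl13 of BAIBA rat 1 lie far above the other BAIBA rats.

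The 3 interferon-induced ligands of Cxcr3 were all above the count level. Cxcl9 was at 21.6, 20.1 and 8.47 CPM in the Sham rats, 9.06, 10.6 and 8.42 CPM in the HF rats, 9.72, 14.6 and 8.04 CPM in the HFE rats and 12.3, 16.9 and 6.21 CPM in the BAIBA rats. Cxcl10 was at 7.04, 9.98 and 2.495 CPM, 3.55, 1.53 and 1.85 CPM, 3.06, 4.98 and 2.03 CPM and 5.24, 2.76 and 1.63 CPM in the same order. Sham rats 1 and 2 were the highest of all 12 rats for both genes, and Sham rat 3 lay among the infarcted rats.

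Against Sham, the log2 fold change in HF was -0.84 (SE 0.34, adjusted p = 0.805) for Cxcl9 and -1.49 (SE 0.55, adjusted p = 0.805) for Cxcl10. For the infarcted rats together Cxcl10 had a log2 fold change of -1.15 (SE 0.43, adjusted p = 0.755). Cxcl11 was at 36.98, 23.8 and 28.6 CPM in the Sham rats, 17.5, 23.99 and 34.8 CPM in the HF rats, 26.5, 22.4 and 33.3 CPM in the HFE rats and 20.9, 21.8 and 16.6 CPM in the BAIBA rats. It did not follow its neighbours: it was lower in every BAIBA rat than in every Sham and HFE rat, with a log2 fold change of -0.58 (SE 0.18, adjusted p = 0.580) against Sham and -0.47 (SE 0.17, adjusted p = 0.440) against HFE. The promoters printed above differ in the same trio, since Cxcl10 held both patterns, Cxcl11 one and Cxcl9 neither, and nothing follows from this for their levels. Cxcr3, their shared receptor, ranged from 0.741 to 1.796 CPM and had no unadjusted p under 0.05.

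Cxcl12, the ligand with the most counts, differed 1.54-fold between its lowest and highest rat. It was at 135, 163 and 171 CPM in the Sham rats, 155, 187 and 127 CPM in the HF rats, 134, 188 and 169 CPM in the HFE rats and 151, 153 and 196 CPM in the BAIBA rats. The groups overlapped throughout, and the log2 fold changes in the 7 comparisons with a direction were at most 0.10 in size, with standard errors of 0.14 to 0.18. Cxcr4, its receptor, was at 13.3, 17.8 and 18.9 CPM in the Sham rats, 21.8, 18.7 and 17.95 CPM in the HF rats, 20.2, 19.5 and 9.05 CPM in the HFE rats and 15.7, 12.3 and 16.5 CPM in the BAIBA rats. Every BAIBA rat was below every HF rat, with a log2 fold change of -0.40 (SE 0.15, adjusted p = 0.851), and HFE rat 3 was the lowest of all.

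Cxcl16, a membrane-bound ligand of Cxcr6, was at 16.4, 19.6 and 13.7 CPM in the Sham rats, 16.97, 15.9 and 16.5 CPM in the HF rats, 14.3, 15.1 and 14.7 CPM in the HFE rats and 30.5, 18.9 and 12.97 CPM in the BAIBA rats. BAIBA rat 1 was highest, and the HFE rats lay just below the HF rats with a log2 fold change of -0.16 (SE 0.10, adjusted p = 0.704). Cxcr6 was at 0.692, 0.908 and 0.131 CPM in the Sham rats, 1.03, 0.429 and 0.477 CPM in the HF rats, 0.666, 0.346 and 1.65 CPM in the HFE rats and 2.29, 1.22 and 0.603 CPM in the BAIBA rats. These values overlapped between all groups. Cxcl14 ranged from 0.424 to 7.42 CPM, Cxcl17 from 1.71 to 5.298 CPM and the neutrophil-recruiting Cxcl1 from 0.641 to 2.79 CPM, with the highest Cxcl14 and Cxcl17 in BAIBA rat 1 and the highest Cxcl1 in HFE rat 3.

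Cx3cl1 (fractalkine), which endothelium displays on its surface, was at 31.7, 30.1 and 19.96 CPM in the Sham rats, 22.2, 34.4 and 27.8 CPM in the HF rats, 31.2, 28.4 and 23.05 CPM in the HFE rats and 20.97, 25.1 and 19.7 CPM in the BAIBA rats. Its receptor Cx3cr1, on patrolling monocytes and resident macrophages, was at 0.462, 0.648 and 0.722 CPM, 0.516, 0.675 and 0.583 CPM, 0.399, 0.415 and 0.253 CPM and 1.45, 0.192 and 0.121 CPM in the same order. Cx3cl1 overlapped between all groups. Every HFE rat was below every HF and every Sham rat for Cx3cr1, which had too few counts to enter these 2 tests, and BAIBA rat 1 was the highest rat while BAIBA rat 3 was the lowest. Xcl1, made by T and NK cells, ranged from 0.380 to 1.97 CPM and was higher in every BAIBA rat than in every HF rat, with a log2 fold change of 0.66 (SE 0.36, adjusted p = 0.851). Further receptors above the count level were Ccr1 at 0.732 to 2.66 CPM, Ccr10 at 0.725 to 2.596 CPM and the Ccr1-like Ccr1l1 at 0.123 to 1.398 CPM, none with an unadjusted p under 0.05.

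The direction of the members as a set moved with single rats, BAIBA rat 1 and Sham rat 2 among them. In BAIBA against HF, 22 of 27 members were higher and the median log2 fold change was 0.42, against -0.01 over all genes. Without HF rat 1 and BAIBA rat 1 it was 15 higher and 10 lower with a median of 0.16, and without BAIBA rat 1 alone 16 and 13 with a median of 0.07. In BAIBA against Sham, 15 of 29 were higher with all rats and 10 of 29 without BAIBA rat 1. In the infarcted rats against Sham, 15 of 32 were higher with a median of -0.10 (all genes 0.01), and without those 2 rats 9 were higher and 21 lower with a median of -0.26. Without Sham rat 2 the same comparison had 20 higher and 15 lower with a median of 0.17, HF against Sham went from 9 higher and 18 lower to 15 and 13, and BAIBA against Sham had 22 of 31 higher with a median of 0.33.

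The list of members at an unadjusted p under 0.05 also changed without these 2 rats, and no adjusted p of a member was under 0.05. In infarcted against Sham rats it then held 8 of 30 members, against 8.09% of all genes, of which Ccl21 was higher and 7 were lower (4.17% of all genes were lower). Among those 7 were Ccl1, Ccl7, Ccl12, Cx3cr1, Cxcl10 and Cxcl13. Cx3cr1 had a log2 fold change of -0.87 (SE 0.39, adjusted p = 0.617) there, against -0.28 with all rats. In BAIBA against Sham without BAIBA rat 1 it was 7 of 29 (8.45% of all genes), with Ccl21 higher and 6 lower, among them Ccl2, Ccl7, Cx3cr1, Cxcl11 and Cxcl13. In BAIBA against HF without both rats it was 4 of 25 (7.69%), in BAIBA against HFE 4 of 27 (10.7%), in HF against Sham 6 of 29 (8.53%) and in HFE against HF 3 of 25 (10.1%).

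The genes behind these counts were not those of the fits with all rats. In HF against Sham without HF rat 1 they were Ccl6 (higher) and Ccl1, Ccl12, Ccl19, Cxcl10 and Cxcl13 (lower), while Ccl21, with a log2 fold change of 0.91 (SE 0.44, adjusted p = 0.670), Ccl7 and Cxcl9 were no longer among them. Ccl19 had -1.43 (SE 0.52, adjusted p = 0.529) there. In HFE against HF they were Ccl2 and Ccl7 (higher) and Ccl6 (lower). In BAIBA against HF without both rats they were Ccl19 (higher) and Ccl6, Cx3cl1 and Cxcl11 (lower), and in BAIBA against HFE without BAIBA rat 1 they were Ccl19 (higher) and Ccl2, Ccl7 and Cxcl11 (lower). Some of these genes entered only through the group where their counts were high. Without BAIBA rat 1, Ccl7 entered BAIBA against HFE through the HFE rats, and Ccl7 and Cx3cr1 entered BAIBA against Sham through the Sham rats. Without HF rat 1, Ccl1 and Ccl12 entered HF against Sham through the Sham rats. For these the filter favours a difference.

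Among 61 further genes of the chemokine system (atypical receptors, G protein signalling, adhesion molecules and inducing cytokines), 58 were in the table, 53 or 54 were tested, and none was called in any of the 8 tests. An unadjusted p under 0.05 was reached by 4 of 54 in HF against Sham (2 higher, where 6% of all genes reached it), 6 of 54 in HFE against HF (2 higher, 7.62%), 4 of 54 in BAIBA against HF (1 higher, 5.55%), 7 of 53 in BAIBA against HFE (5 higher, 9.57%), 10 of 53 in HFE against Sham (1 higher, 11.2%), 6 of 54 in BAIBA against Sham (2 higher, 7.41%), 6 of 54 in infarcted against Sham rats (1 higher, 6.35%) and 8 of 54 for any difference (9.71%). Vcam1, the endothelial ligand of leukocyte integrins, had a log2 fold change of -1.005 (SE 0.25, adjusted p = 0.268) in HFE against Sham and 1.399 (SE 0.30, adjusted p = 0.179) in BAIBA against HFE. Grk3, a kinase that desensitises chemokine receptors, had -1.63 (SE 0.38, adjusted p = 0.250) in HFE against Sham. It entered that test only through the Sham rats (30, 17 and 23 counts, against 7, 5 and 9 in the HFE rats). The filter thus favours a negative value for Grk3, which is a description only. Irf1, an interferon-induced factor, had -0.67 (SE 0.21, adjusted p = 0.740) in infarcted against Sham rats. Ackr2, a scavenger of CC chemokines, had 1.18 (SE 0.36, adjusted p = 0.805) in HF against Sham, and Ackr4, which removes Ccl19 and Ccl21, had -1.33 (SE 0.41, adjusted p = 0.336) in HFE against Sham. Rgs16, a brake on G protein signalling, had -1.15 (SE 0.28, adjusted p = 0.220) in BAIBA against HFE. Nfkbia, the NF-κB inhibitor, had 0.90 (SE 0.17, adjusted p = 0.254) in BAIBA against Sham. Among the other genes with an unadjusted p under 0.05 in a comparison with a direction, Gnb2, Elmo1, Relb, Ackr3 and Ifngr1 had 1 or more positive log2 fold changes, and Arrb1, Csf1, Csf1r, Fgr, Nfkb2, Sele, Selplg and Stat3 had negative ones, while Csf1r was positive in BAIBA against HFE, Elmo1 was negative in HFE against HF and Relb was negative in BAIBA against HFE.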

How the data were processed

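Left ventricular poly(A) RNA of 12 rats was sequenced in paired-end libraries. According to the paper's methods, the authors trimmed the reads, aligned them with HISAT2, assembled transcripts with StringTie and counted reads per gene with featureCounts. The annotation, tool versions and strandedness are not given in the sources used here, and the submitters' processing notes name a mouse build (mm9) for these rat samples, so the counts carry no coordinates here. The deposited counts are whole reads per gene without normalization, and the deposited FPKM values were made by the authors from the counts and gene lengths. Further deposited tables repeated both sets without a difference. Reads of overlapping or antisense genes cannot be told apart without strand.

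Tests on the counts used edgeR 4.0.16 under R 4.3.3 (TMM, filterByExpr with a minimum count of 10, robust quasi-likelihood fits, Benjamini-Hochberg adjustment over all genes tested) on the 2 groups compared, or on all 12 rats for the infarcted rats against Sham and for any difference. All adjusted p-values are from edgeR's quasi-likelihood test unless DESeq2 is named. CPM (counts scaled to depth) used TMM factors over the 12 rats. For single members an exact permutation test on log2(CPM + 0.1), two-sided, was added, and with 3 rats against 3 its p cannot go below 0.1. Intervals of count ratios are exact, at 95%, and cover counting error only. The procedure was tested on simulated counts. Replicates differed by more than sampling noise, with chi-square values per degree of freedom of 12.6 to 36.4.

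The alternatives were DESeq2 1.42.0, RLE normalization, library-size scaling, other filters, all 12 rats in a single fit, an unadjusted p, no fold limit, each rat left out and the replicate number as a block. The fit without HF rat 1 and BAIBA rat 1, and the thymus, lung and immediate early gene lists, were added after the data were seen. The members and the other lists were chosen with earlier results of these data known. Full values are given for members with an unadjusted p under 0.05 in any test, for the 8 with the highest mean FPKM and for a set of ligand and receptor pairs. Other genes of the system are named where their unadjusted p was under 0.05. Counts cover all genes, though 1 member and 1 other gene are not reported here. By the correlation of deviations from the group means, same-numbered rats deviated together (each pair over 0.1) only in BAIBA against HFE, at 0.12 to 0.22. Nothing in the labels says that the numbers mark a shared batch.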

Additional observations from a re-analysis of the deposited data

How the results depend on the processing

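No chemokine gene was called by edgeR in the main analysis. With the unadjusted p in place of the adjusted one, and the fold limit kept, where 1.05% to 2.51% of all genes passed (9.71% for any difference, which has no fold limit), 5 were called in HF against Sham, 2 in HFE against HF, 2 in BAIBA against HF, 1 in BAIBA against HFE, 3 in HFE against Sham, 2 in BAIBA against Sham, 4 in infarcted against Sham rats and 4 for any difference. These counts include Ccl1, Ccl11 and Ccl27, which entered their tests only through the rats where they were high. DESeq2 called 1 in BAIBA against HFE (Ccl11, adjusted p = 0.0152), 3 in HFE against Sham (Ccl21 with 0.00340, Cxcl13 with 0.0159 and Ccl1 with 0.0174), 2 in BAIBA against Sham (Ccl21 with 0.000220 and Ccl11 with 0.00893) and 1 for any difference (Ccl11, 0.00163). The Ccl11 calls rest on the high counts of BAIBA rats 1 and 3, and the Ccl1 call on those of the Sham rats. Without a filter beyond 1 count, edgeR called 1 in HFE against Sham (Ccl1, adjusted p = 0.0248, where 0.109% of all genes were called). Leaving out each rat gave 0 to 1 in BAIBA against Sham, the call being Ccl11 without BAIBA rat 2, and 0 in all other comparisons. The cause of these differences was not tested.

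Among the other genes of the chemokine system the unadjusted p gave 2 calls in HF against Sham, 1 in BAIBA against HF, 4 in BAIBA against HFE, 3 in HFE against Sham, 1 in infarcted against Sham rats and 8 for any difference, and DESeq2 gave 2, 1 and 1 in BAIBA against HFE, HFE against Sham and any difference. With the replicate number as a block, 0 members were called in every comparison, BAIBA against HFE included, and the block changed no other call. The other counts, 126 for the members and 131 for the other genes, were as in the main analysis. Of 607 recomputations of the 41 log2 fold changes of chemokine genes and other genes of the system that the text gives, 598 kept their direction and their side of the threshold, 8 gained a call (5 of chemokine genes, and Rgs16 and Vcam1 in BAIBA against HFE and Vcam1 in HFE against Sham under DESeq2), and 1 changed its sign: Cxcl12 in BAIBA against Sham, at -0.039 without BAIBA rat 3 and up to 0.168 with other rats left out. Ccl11 in BAIBA against Sham and BAIBA against HFE did not enter the main tests and is not among them. Single rats moved some folds by over 1.5 times. Ccl1 stood at -2.41 in BAIBA against Sham without BAIBA rat 2 and at -1.497 in HF against Sham without HF rat 3, Ccl11 at 2.82 in BAIBA against HF without HF rat 1, Ccl19 at 2.399 in BAIBA against HFE without HFE rat 1 and at 2.34 in BAIBA against HF without HF rat 1, Cxcl13 at -2.39 in HFE against Sham without HFE rat 2, and Cx3cr1 at -0.897 in infarcted against Sham rats without BAIBA rat 1. With the block, Ccl7 in BAIBA against HFE was at -1.15.

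Groups of 3 rats limit every comparison, and members with few counts, such as Ccl1 and Ccl11, are limited by depth.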
